A study of Mus musculus with 6 samples.

Results

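The genes of retinoic acid synthesis and reception were read in fetal mouse lungs labelled GATA6 KO and in wild-type lungs. They comprise 9 genes: the synthesising enzymes Aldh1a1, Aldh1a2 and Aldh1a3, the receptors Rara, Rarb and Rarg, the degrading enzyme Cyp26b1, the carrier Crabp1 and the retinol transporter Stra6. Every probe set of the Affymetrix Mouse430_2 array whose annotation names exactly 1 gene, that gene being one of the 9, was taken. This gave 9 of 18193 named genes and 12 of 45037 non-control probe sets, with 3 for Aldh1a3, 2 for Rarg and 1 for each other gene. Total RNA of E18.5 lungs was hybridised to 6 arrays, 3 labelled GATA6 KO (KO 1 to 3) and 3 labelled wild-type (WT 1 to 3), to ask which genes the transcription factor GATA6 regulates in the lung. The labels give no strain, allele, Cre driver, deleted cell type or litter for either group, and do not say that each array holds a separate embryo. The p-values therefore measure only the spread between these arrays, which may be partly technical.

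Retinoic acid is made from vitamin A. Retinol is taken up by cells, oxidised reversibly to retinaldehyde, and then oxidised irreversibly to retinoic acid by the ALDH1A enzymes. Retinoic acid binds nuclear receptors of the RAR family, which pair with RXR receptors on response elements in DNA, and CYP26 enzymes break it down. In the fetal lung the pathway is known for the formation of the lung bud, for the patterning of airways and for the later formation of alveoli.

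The arrays limit what can be compared. Values are given as log2(intensity + 16), a scale that understates changes of dim probe sets, and the lowest reading on any array was 4.17 to 4.18 on it. A probe set is called dim below where its mean over 6 arrays lay under 5.30, the median of all non-control probe sets. The WT arrays were all scanned before the arrays labelled KO, so the effect of scan order cannot be told apart from that of group. Fluidics station 1 processed WT 1 and WT 2, and station 2 the other 4 arrays. The brightest Gata6 probe set read 11.58, 11.39 and 11.19 in KO 1 to 3, against 11.12, 10.26 and 10.42 in WT 1 to 3, with a difference of 0.79 (SE 0.25, unadjusted p = 0.0194, limma adjusted p = 0.963). The other Gata6 probe sets differed by 0.82 (SE 0.31, unadjusted p = 0.0406) and 0.36 (SE 0.45), and in the first 2 of the 3 every array labelled KO lay above every WT array. The targeted gene thus read higher, not lower, in the arrays labelled KO, and did not bear out that label. Where the probe sets lie relative to a deleted part was not analysed here. KO and WT below stand for the labels, and every direction rests on them. All 8 listed markers of lung epithelium lay above the median level. Sftpc, the surfactant protein C gene, read 12.71, 15.74 and 15.37 in KO 1 to 3, against 15.60, 15.79 and 15.66 in WT 1 to 3, so that KO 1 alone was far lower. Epcam, another of the 8 but named outside the rule given below, differed by 0.41 (SE 0.40) in the other direction. By that rule Krt18 differed by 0.23 (SE 0.17) and Krt8 by -0.17 (SE 0.13).

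None of the retinoic acid genes separated the lungs labelled KO from the wild-type lungs. Of the 12 probe sets 7 read higher and 5 lower in the arrays labelled KO, and in all 12 the arrays of the groups overlapped. In limma 0 of the 12 passed an adjusted p of 0.05, and 0 had an unadjusted p under 0.05. Over all 45037 probe sets the same fit called 0%, and 3.1% had an unadjusted p under 0.05. All 3 arrays labelled KO lay above all 3 WT arrays in 5.72% of probe sets and below them in 2.76%. The median difference, KO minus WT, was 0.005 over the 12 probe sets and 0.003 over all probe sets.

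**Figure D1:**
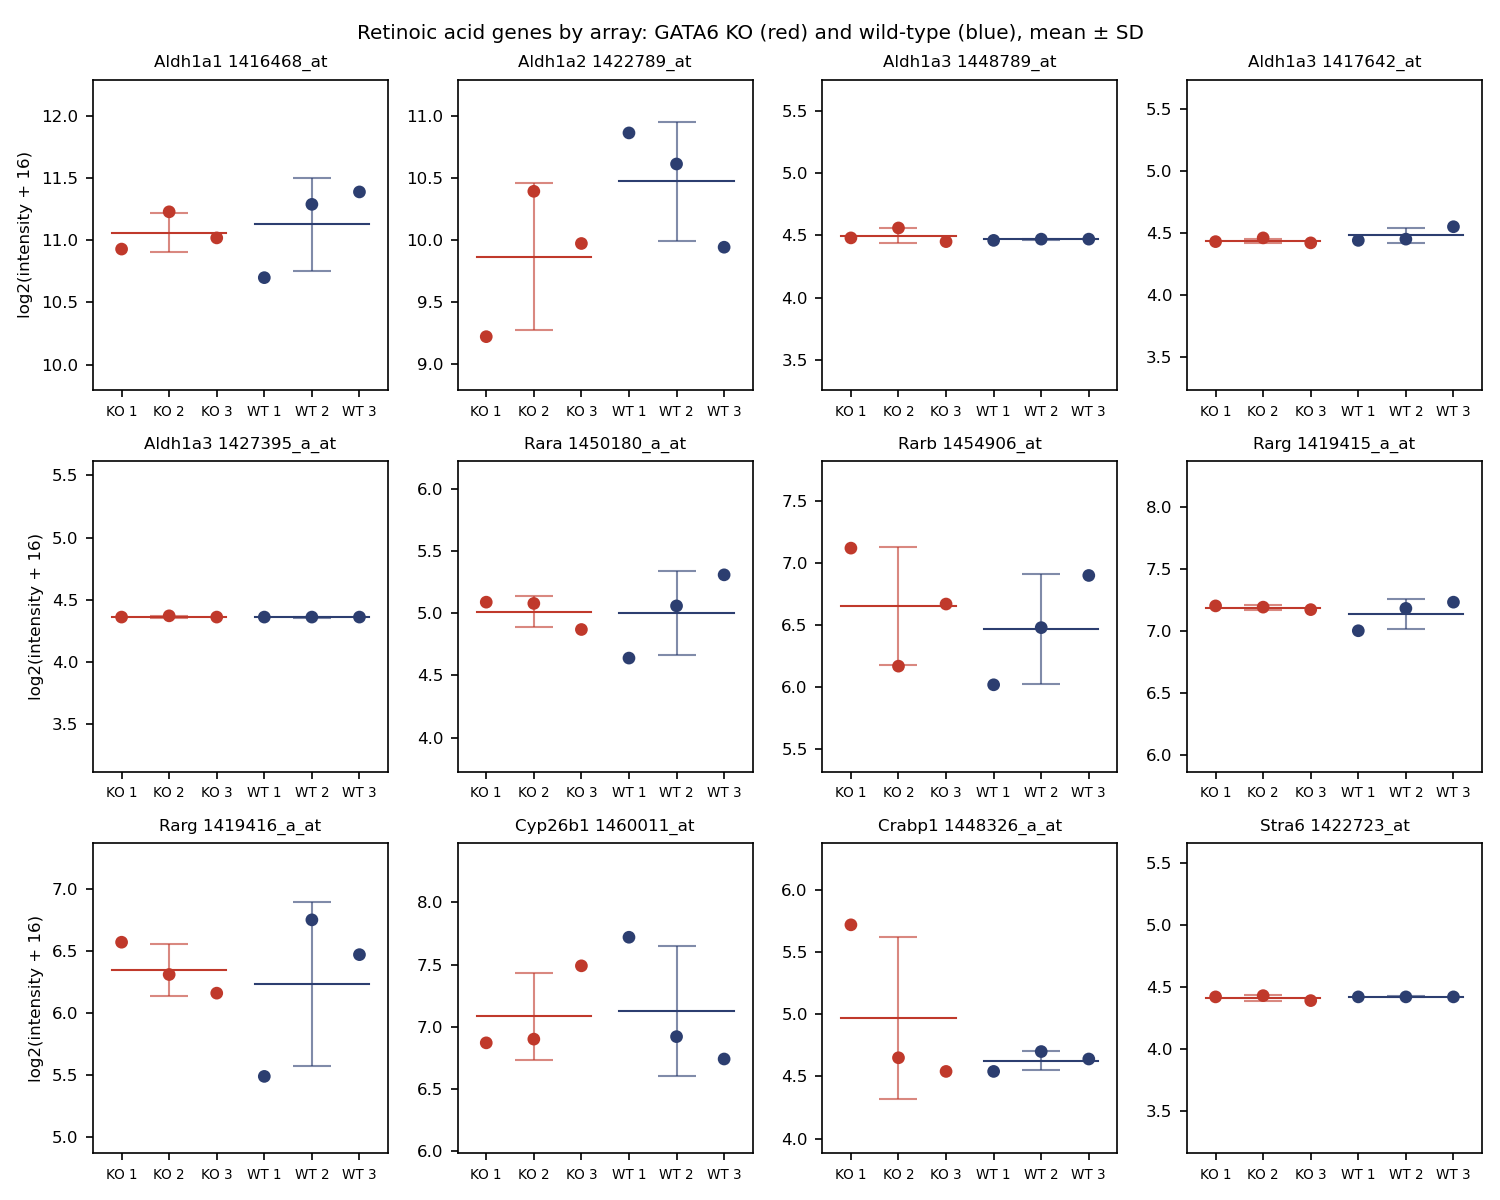
Level of each of the 12 probe sets, log2(intensity + 16) on the vertical axis, on the 3 arrays labelled GATA6 KO (red, left) and the 3 wild-type arrays (blue, right) in each panel; horizontal lines are group means and bars the SD over 3 arrays, and each panel has its own vertical range. Red and blue points overlap in all 12 panels, and Aldh1a2 shows the widest gap between group means, 9.86 for KO and 10.47 for WT.

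The synthesising enzymes read in different ways on these arrays. Aldh1a1, a retinaldehyde dehydrogenase of epithelium and other cells, read 10.93, 11.23 and 11.02 in KO 1 to 3, against 10.70, 11.29 and 11.39 in WT 1 to 3. The arrays labelled KO lay inside the range of the WT arrays, whose lowest was WT 1. The means were 11.06 ± 0.16 in lungs labelled KO and 11.13 ± 0.37 in lungs labelled WT (SD, n = 3 each). The difference was -0.07 (SE 0.20, limma adjusted p = 0.963), and its 95% interval ran from -0.57 to 0.44.

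Aldh1a2, the enzyme that makes most retinoic acid in the early embryo and is known in the lung for its expression in the mesothelium, read 9.22, 10.39 and 9.97 in KO 1 to 3, against 10.86, 10.61 and 9.94 in WT 1 to 3. KO 1 was the lowest array and WT 1 the highest, and WT 3 read below KO 2 and KO 3. The means were 9.86 ± 0.59 in lungs labelled KO and 10.47 ± 0.48 in lungs labelled WT (SD, n = 3 each). This was the largest difference in size among the 12 probe sets, -0.61 (SE 0.37, 0.657-fold), and it did not pass (limma adjusted p = 0.963). Its 95% interval, -1.52 to 0.31, covers both no difference and a reading over 2 times lower. The difference was -0.29 without KO 1 and -0.87 without WT 3. Among the arrays of station 2, where WT 3 is the lone wild-type array, it was -0.07. In whole lung, fewer cells that make a transcript and less transcript per cell cannot be told apart.

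Aldh1a3, the third enzyme of the family, was dim in all its probe sets. Probe set 1448789_at read 4.48, 4.56 and 4.45 in KO 1 to 3, against 4.46, 4.47 and 4.47 in WT 1 to 3. Probe set 1417642_at read 4.43, 4.46 and 4.42 in the arrays labelled KO, against 4.44, 4.45 and 4.55 in the WT arrays. Probe set 1427395_a_at read 4.36, 4.37 and 4.36 in the arrays labelled KO, against 4.36 in each WT array. All 3 lay close to the lowest reading of the arrays. Their differences were 0.03 (SE 0.03), -0.04 (SE 0.03) and 0.003 (SE 0.005), at levels where a change of the transcript may not register.

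Several markers of the mesothelium, the cell layer that covers the lung, were lowest in KO 1, as Aldh1a2 was. This was not particular to mesothelium. The list means of heart muscle (7.71) and of blood and myeloid cells (7.91) were lowest in KO 1 too, like that of mesothelium (8.57). The fibroblast (12.47) and airway (12.01) means were highest in KO 1, and the remaining marker lists had their lowest mean in another array. The correlation of the mesothelium marker mean with Aldh1a2, given below, did not pass after adjustment. Upk3b, a uroplakin gene of mesothelial cells, read 10.29, 12.09 and 11.75 in KO 1 to 3, against 12.13, 11.99 and 11.16 in WT 1 to 3. Wt1, the mesothelial transcription factor gene, read 5.53, 6.46 and 6.28 in KO 1 to 3, against 6.74, 6.54 and 5.85 in WT 1 to 3. For both by the brightest probe set, as for Aldh1a2, KO 1 was the lowest array and WT 1 the highest. The other Upk3b probe set was also lowest in KO 1 (9.15), but highest in KO 2 (11.42), with 11.29 in WT 1. Upk1b, another uroplakin gene, went another way, with 9.12, 10.53 and 10.22 in KO 1 to 3, against 9.61, 8.57 and 8.87 in WT 1 to 3. Krt19 was lowest in KO 1 (12.81) but highest in KO 2 (13.64), and Calb2 was highest in WT 3 (5.38). Upk3b, Wt1 and Krt19 were named after their values were seen. By the rule for naming, Upk1b differed by 0.94 (SE 0.44), Muc16 by -0.38 (SE 0.35) and Calb2, which was dim, by -0.15 (SE 0.18). Of the 8 listed mesothelium markers 7 lay above the median level, and 6 read lower with the KO label and 2 higher. An unadjusted p under 0.05 was found in 0, beside 3.1% of all probe sets. The median difference of the 8 markers was -0.20. The summed intensity of the 8 ran from 11945 to 24695 in the arrays labelled KO and from 14975 to 19886 in the WT arrays. The part of mesothelial RNA in the Aldh1a2 reading was not tested.

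Over the 6 arrays the Aldh1a2 reading and the mean of the 8 mesothelium markers correlated at r = 0.862 (exact permutation p = 0.0236) and rho = 0.829 (exact permutation p = 0.0583). The adjusted values over the 10 marker lists compared with Aldh1a2 were 0.236 and 0.583, so neither passed. Without the 2 arrays farthest from the median of the marker mean, r was 0.797. After the group means were removed, r was 0.982, given as a description. Without that removal the other 9 lists had r from -0.796 for fibroblasts to 0.571 for blood and myeloid cells. With it they ran from -0.792 for smooth muscle to 0.741 for heart muscle. Among the 4 arrays of station 2 r was 0.941 for the mesothelium markers, and station 1 held 2 arrays, too few for a value.

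**Figure D2:**
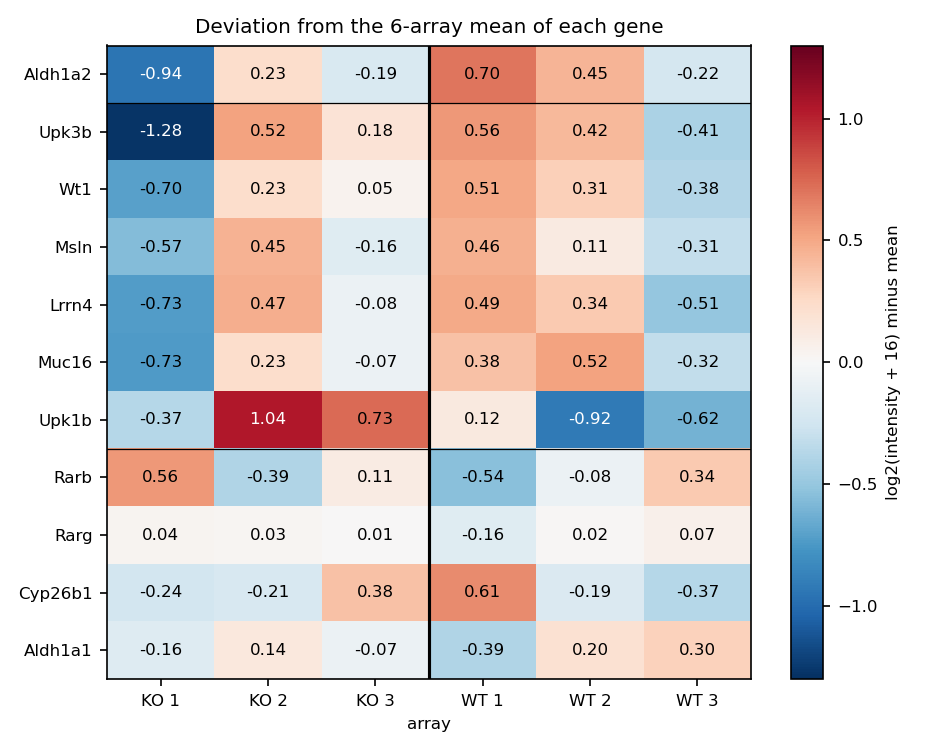
Deviation of each gene from its own mean over 6 arrays, in log2(intensity + 16), for Aldh1a2 (top), 6 mesothelium markers (middle) and 4 other genes of the pathway, each by its brightest probe set (bottom); columns are arrays, GATA6 KO left of wild-type. Aldh1a2, Upk3b, Wt1, Msln, Lrrn4 and Muc16 were all lowest in KO 1, where Rarb was highest, while Upk1b was lowest in WT 2. The other 2 of the 8 listed markers, Krt19 and Calb2, are not shown.

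Of the receptors, Rarb is itself induced by retinoic acid through a response element near its promoter, and is often read as a sign of retinoic acid activity. Such an element is a direct repeat of a 6-base site with 5 bases between. The sites searched were AGGTCA and the related spellings AGTTCA, likewise the spelling GGGTCA, and last the spelling GGTTCA, in any pairing with that spacing. They were sought on both strands in RefSeq promoter windows of 300 bases, 250 before to 50 after the start site (GRCm38.p6). Of 32851 windows 32 held one (0.097%). Among the genes in question 8 of 9 had a window, 16 windows in all, and the Rarb window was the 1 that held a match. Cyp26a1, a degrading enzyme that retinoic acid also induces, held one too. The 120 bases before the start site of both genes are shown, on the strand of the gene, since these are the targets read below, with the match in capitals. For Rarb they lie at chr14:16575477-16575596 (minus strand), with the match 53 to 37 bases before the start site. For Cyp26a1 they lie at chr19:37697688-37697807 (plus strand), with the match 32 to 16 bases before the start site, where the repeat reads on the opposite strand.
Rarb: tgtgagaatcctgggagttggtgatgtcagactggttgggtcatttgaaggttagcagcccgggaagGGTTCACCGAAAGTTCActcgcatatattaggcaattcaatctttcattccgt
Cyp26a1: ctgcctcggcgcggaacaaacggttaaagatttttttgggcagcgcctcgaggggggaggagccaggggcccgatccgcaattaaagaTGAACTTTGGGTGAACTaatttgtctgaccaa
Spacings of 2 or 1 bases were found in 0 of the 16 windows and in 0.268% and 0.222% of all windows. Motifs of GATA factors, which are AGATAA with the related spellings AGATAG, likewise the spelling TGATAA, and last the spelling TGATAG, on either strand, were found in 4 of the 16 windows, those of Aldh1a1, Rarg and Stra6, against 29.8% of all windows. A match is a string of letters in a window and not a measured binding site.

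The reading of Rarb gave no sign that set the groups apart. Rarb read 7.12, 6.17 and 6.67 in KO 1 to 3, against 6.02, 6.48 and 6.90 in WT 1 to 3. KO 1 was the highest array, WT 1 the lowest, and the groups interleave. The means were 6.66 ± 0.48 in lungs labelled KO and 6.47 ± 0.44 in lungs labelled WT (SD, n = 3 each). The difference was 0.19 (SE 0.36, limma adjusted p = 0.963), with a 95% interval from -0.71 to 1.08. It was -0.04 without KO 1 and -0.04 without WT 1. Cyp26a1, whose promoter carries the other match, was dim, with 4.38 to 4.39 in the arrays labelled KO and 4.37 to 4.39 in the WT arrays, close to the lowest reading of the arrays.

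Rara, the most widely expressed receptor of the family, has 1 probe set here, and it was dim. It read 5.09, 5.08 and 4.87 in KO 1 to 3, against 4.64, 5.06 and 5.31 in WT 1 to 3. The arrays labelled KO lay within the WT range, and the difference was 0.007 (SE 0.18, limma adjusted p = 0.995). Rarg, a receptor known from skin and cartilage, read 7.20, 7.19 and 7.17 in KO 1 to 3 with probe set 1419415_a_at, against 7.00, 7.18 and 7.23 in WT 1 to 3. That is the narrowest spread among the 6 probe sets above the median, and its difference was 0.05 (SE 0.16; 95% interval -0.34 to 0.45; limma adjusted p = 0.963). Its other probe set, 1419416_a_at, read 6.57, 6.31 and 6.16 in KO 1 to 3, against 5.49, 6.75 and 6.47 in WT 1 to 3, with a difference of 0.11 (SE 0.38, limma adjusted p = 0.963). WT 1 was the lowest array in both Rarg probe sets.

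Cyp26b1, which breaks retinoic acid down, read 6.87, 6.90 and 7.49 in KO 1 to 3, against 7.72, 6.92 and 6.74 in WT 1 to 3. WT 1 and KO 3 stood above the other 4 arrays, 1 from each group. The means were 7.08 ± 0.35 in lungs labelled KO and 7.13 ± 0.52 in lungs labelled WT (SD, n = 3 each), a difference of -0.04 (SE 0.34, limma adjusted p = 0.981) with a 95% interval from -0.88 to 0.79. WT 1 and KO 3 are also the arrays in which bright unnamed probe sets read highest relative to bright named ones. The median of the unnamed minus that of the named was -1.97, -1.19 and -0.66 in KO 1 to 3, against -0.87, -1.98 and -1.88 in WT 1 to 3. With that measure as a covariate the Cyp26b1 difference was -0.23 (SE 0.20), and its part in the reading was not tested further.

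Crabp1, which binds retinoic acid in the cytoplasm, was dim except in 1 array. It read 5.72, 4.65 and 4.54 in KO 1 to 3, against 4.54, 4.70 and 4.64 in WT 1 to 3. KO 1 stood alone, and the difference of 0.34 (SE 0.32, limma adjusted p = 0.963) was -0.03 without that array. Crabp1 is known from neural and neural crest cells, and the 4 measured neuroendocrine and neural markers were all dim. Their summed intensity was 26.7 to 33.5 in the arrays labelled KO and 28.1 to 51.7 in the WT arrays.

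Stra6, the membrane receptor that takes up retinol from its carrier in plasma, read 4.42, 4.43 and 4.39 in KO 1 to 3, against 4.42 in each of WT 1 to 3. It lay close to the lowest reading in every array, with a difference of -0.01 (SE 0.01, limma adjusted p = 0.963).

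How far a difference is bounded depends on the gene. The limma 95% interval stayed within 1 log2 of 0 for 3 of the 6 probe sets above the median, those of Aldh1a1, Cyp26b1 and Rarg 1419415_a_at. It reached past 1 log2 for Aldh1a2 (lower), Rarb (higher) and Rarg 1419416_a_at (higher). In simulated data with 45037 probe sets and 3 arrays per group, 100 bright probe sets were changed by 1 log2 and 100 by 2 log2. Of these 11 and 70 were recovered, so a probe set that did not pass may still differ. The simulation used independent errors, with a spread smoothed over probe sets of similar level, so these shares may not hold for the real arrays. Of the dim probe sets, those of Aldh1a3 and Stra6 had narrow intervals at readings near the floor. The interval of Rara ran from -0.43 to 0.45 and that of Crabp1 from -0.44 to 1.12.

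**Figure D3:**
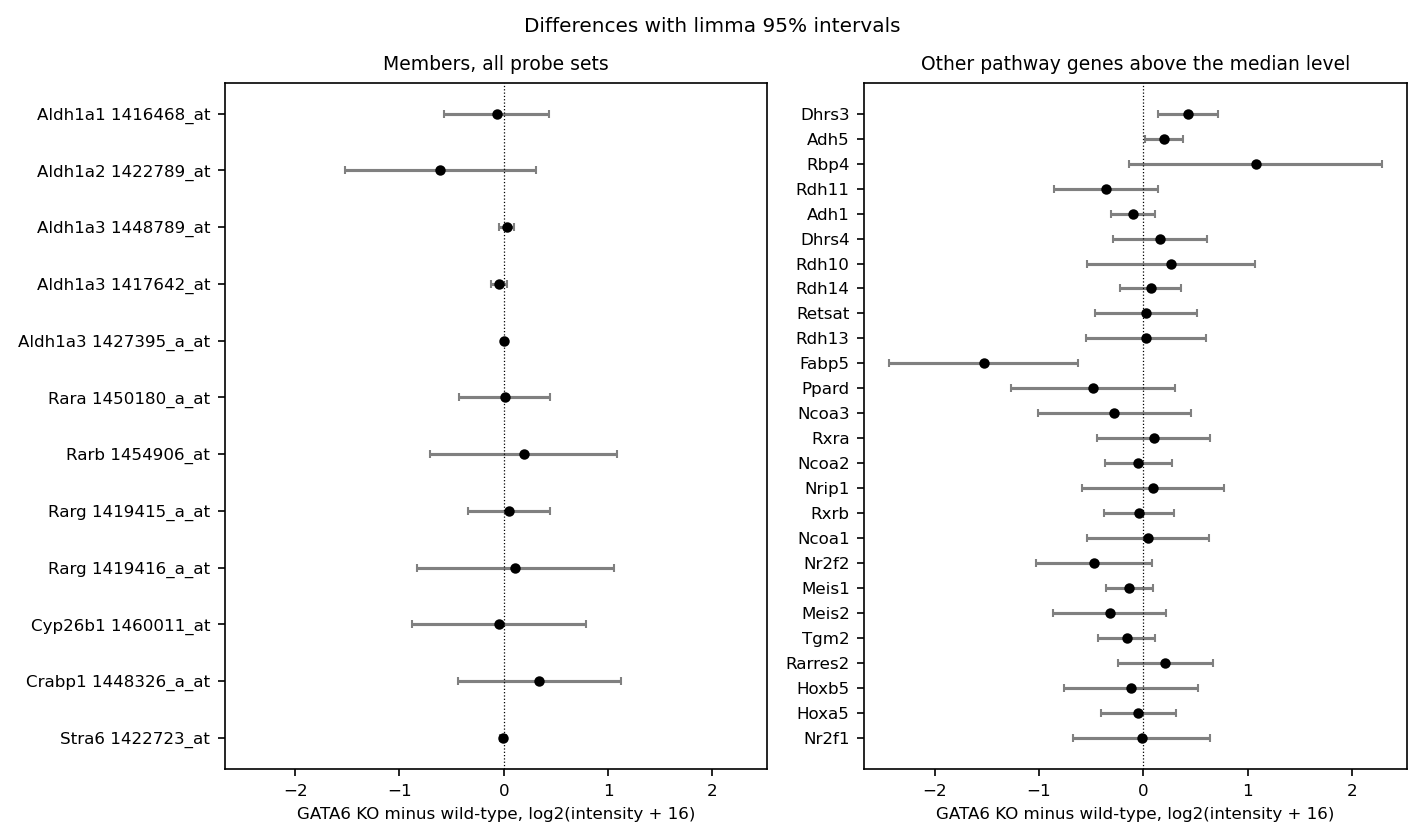
Difference GATA6 KO minus wild-type in log2(intensity + 16) on the horizontal axis, with limma 95% intervals as bars, for the 12 probe sets (left) and for the other listed pathway genes above the median level by their brightest probe set (right). All 12 intervals on the left cross 0, and on the right those of Dhrs3 and Adh5 lie above 0 and that of Fabp5 below it, none of which passed over all probe sets.

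The receptors and enzymes varied together in places, regardless of the labels. Rarb ran opposite to Aldh1a2 over the 6 arrays without passing the adjusted threshold, with r = -0.911 (exact permutation p = 0.0125) and rho = -0.943 (exact permutation p = 0.0167). The values adjusted over the 10 pairs of the 5 genes above the median were 0.0625 and 0.0833, and r was -0.727 without the 2 arrays farthest from the Aldh1a2 median. Leaving out single arrays gave r from -0.949 (without WT 2) to -0.854 (without KO 1). Cyp26b1 ran opposite to Rarg, with r = -0.866 (exact permutation p = 0.00139, adjusted 0.0139) and rho = -1 (exact permutation p = 0.00278, the smallest that 720 orderings allow for rho; adjusted 0.0278). Without the 2 arrays farthest from the Rarg median r was -0.765. The brightest Rarg probe set spans 7.00 to 7.23, so this order rests on small steps. The other Rarg probe set, set against Cyp26b1 after these values were seen, gave r = -0.867 (exact permutation p = 0.0222) and rho = -0.6. WT 1 is both the lowest array for Rarg and the highest for Cyp26b1, and without it r was -0.762 with the brightest Rarg probe set and -0.647 with the other. The other 8 pairs did not pass, with adjusted p-values for r of 0.153 or more (exact permutation). All pairs share the 6 arrays and their differences in RNA composition. The permutations treat the arrays as exchangeable and were not adjusted for composition. A pair that passed is therefore not shown to have a relation of its own. Among the 4 arrays of station 2 r was -0.909 for Aldh1a2 and Rarb, and for Cyp26b1 it was -0.886 with the brightest Rarg probe set and -0.827 with the other.

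Genes whose brightest probe set was most alike over the 6 arrays were picked from 11244 others above the median, and with so many candidates a high r carries no weight alone. For Aldh1a2 they were Fam189a2 (r = 0.995) and Pdlim2 (r = 0.993), among 200 genes with r over 0.9. For Rarb they were Hspa13 (r = 0.987) and Aoc3 (r = 0.984), among 311. For Rarg they were Ascc1 (r = 0.996) and Sox2 (r = 0.995), among 189. For Cyp26b1 they were Dtx3 (r = 0.997) and Gga3 (r = 0.995), among 136. For Aldh1a1 they were Kcnq5 (r = 0.996) and Dync1li2 (r = 0.978), among 43.

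Upstream of the ALDH1A enzymes, the largest difference without overlap of the groups was that of Dhrs3, a reductase that turns retinaldehyde back into retinol and is itself induced by retinoic acid. Dhrs3 read 10.37, 10.17 and 10.39 in KO 1 to 3, against 10.04, 9.75 and 9.86 in WT 1 to 3, so that every array labelled KO lay above every WT array. The means were 10.31 ± 0.12 in lungs labelled KO and 9.89 ± 0.15 in lungs labelled WT (SD, n = 3 each). The difference of 0.42 (SE 0.12, 1.34-fold) had an unadjusted limma p of 0.0116 and did not pass (adjusted p = 0.963). Rdh10, which oxidises retinol in the opposite direction, differed by 0.27 (SE 0.32), with groups that overlap. Rdh10 was named after its values were seen.

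Adh5, an alcohol dehydrogenase of every tissue, read 12.58, 12.58 and 12.59 in KO 1 to 3, against 12.46, 12.32 and 12.37 in WT 1 to 3. All arrays labelled KO lay above all WT arrays, by 0.20 on average (SE 0.07, unadjusted p = 0.0357, limma adjusted p = 0.963). Its dim second probe set differed by -0.01 (SE 0.03). Rbp4, the plasma carrier of retinol, read 8.41, 7.60 and 7.51 in KO 1 to 3, against 5.98, 6.65 and 7.66 in WT 1 to 3. Rbp4 differed by 1.08 (SE 0.49, limma adjusted p = 0.963), but WT 3 read above KO 2 and KO 3, and among the arrays of station 2 the difference was 0.18.

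Of 23 listed genes of retinol uptake, storage and oxidation, 21 were measured and 10 lay above the median. They read higher in 15 and lower in 6, with a median of 0.003, and 0 passed in limma. An unadjusted p under 0.05 was found in 2, beside 3.1% of all probe sets. All arrays labelled KO lay above all WT arrays in 3 of the 21 (Dhrs3, Adh5 and the dim Rdh5, which was named after its values were seen) and below them in 0. Over all 18193 genes by their brightest probe set those shares were 5.89% and 3.81%, and the median difference was 0.003.

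Among the carriers and degrading enzymes, Fabp5 stood out in size. Fabp5, a fatty acid binding protein that can also deliver retinoic acid to the receptor PPARD, read 11.87, 13.25 and 12.98 in KO 1 to 3, against 14.33, 14.02 and 14.34 in WT 1 to 3. Every array labelled KO lay below every WT array, with KO 1 the lowest. The means were 12.70 ± 0.73 in lungs labelled KO and 14.23 ± 0.18 in lungs labelled WT (SD, n = 3 each), a difference of -1.53 (SE 0.37, 0.346-fold, unadjusted p = 0.00638) that did not pass (limma adjusted p = 0.963). The second Fabp5 probe set differed by -2.10 (SE 0.49). Without KO 1 the difference of the brightest was -1.12. Cyp26a1 and Crabp2, the other measured genes of that list of 4, were dim with differences of 0.003 (SE 0.006) and 0.0007 (SE 0.009). Of the 3 measured, 0 passed in limma and 1 had an unadjusted p under 0.05, beside 3.1% of all probe sets.

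**Figure D4:**
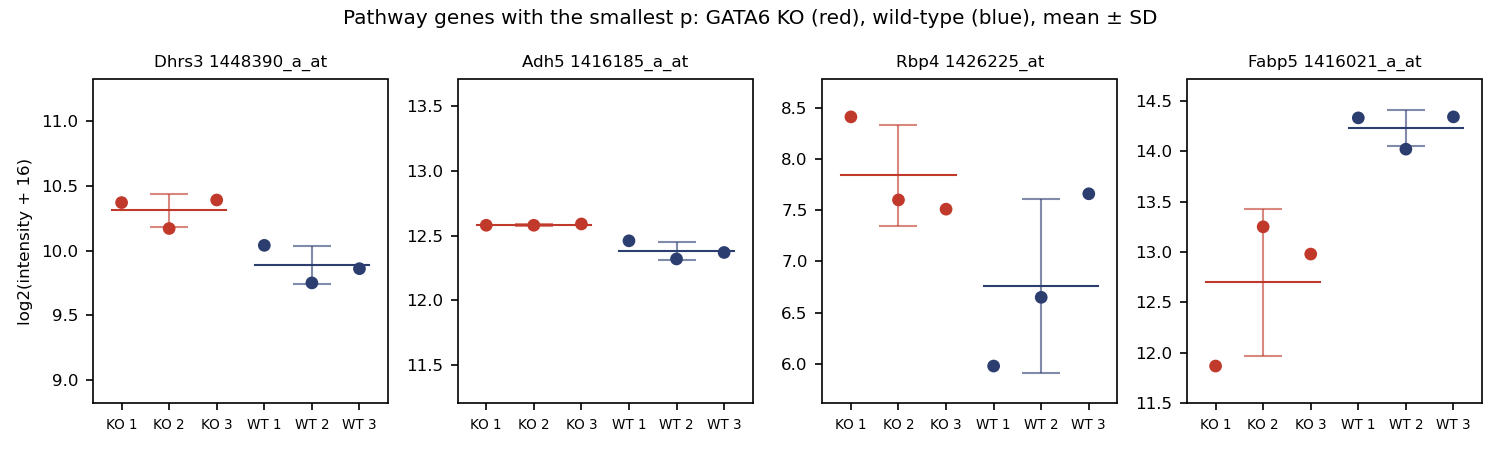
Level of Dhrs3, Adh5, Rbp4 and Fabp5, log2(intensity + 16), on the 3 arrays labelled GATA6 KO (red, left) and the 3 wild-type arrays (blue, right); lines are group means and bars the SD over 3 arrays, and each panel has its own vertical range. Dhrs3 and Adh5 read higher in all 3 arrays labelled KO, Fabp5 lower in all 3, and Rbp4 overlaps through WT 3.

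Among the partners of the receptors no difference passed. Of 8 measured RXR and cofactor genes 4 read higher and 4 lower, the groups overlapped in all 8, and the median was -0.02. In limma 0 passed and 0 had an unadjusted p under 0.05, beside 3.1% of all probe sets. Over all genes by their brightest probe set, all arrays labelled KO lay above all WT arrays in 5.89% and below them in 3.81%. The counts for these 8 genes are thus near the shares over all genes. Ppard, the nuclear receptor served by Fabp5, differed by -0.48 (SE 0.32; 95% interval -1.27 to 0.30), the coactivator gene Ncoa3 by -0.28 (SE 0.30; 95% interval -1.01 to 0.46) and the dim Rxrg by 0.005 (SE 0.007).

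Of 16 measured target genes of retinoic acid 9 read higher and 7 lower, with a median of 0.0007, and 0 passed in limma. An unadjusted p under 0.05 was found in 1, Dhrs3, beside 3.1% of all probe sets. All arrays labelled KO lay above all WT arrays in 1, Dhrs3, and below them in 2, Meis1 and Tgm2, the second of these named after its values were seen, beside 5.89% and 3.81% of all genes by their brightest probe set. Meis1, a homeobox partner of HOX proteins, differed by -0.13 (SE 0.09), Tgm2, a transglutaminase, by -0.16 (SE 0.11) and Nr2f2, an orphan nuclear receptor of mesenchyme and veins, by -0.47 (SE 0.23). Dhrs3, Cyp26a1, Crabp2 and Rarb stand in more than 1 of the lists.

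None of the listed cell type markers passed in limma. Fabp4, a fatty acid binding protein gene on the lipofibroblast list, had the smallest p of the listed genes. It read 10.16, 10.17 and 10.31 in KO 1 to 3, against 9.05, 9.24 and 9.34 in WT 1 to 3, a difference of 1.00 (SE 0.11, unadjusted p = 0.000133, limma adjusted p = 0.666). All arrays labelled KO lay above all WT arrays in 5.89% of all genes by their brightest probe set, and below them in 3.81%. Of 8 fibroblast markers 2 had all arrays labelled KO above all WT arrays, Dcn by 1.10 (SE 0.20) and Lum by 1.47 (SE 0.31), while Pdgfra differed by -0.25 (SE 0.16), and the median was -0.03. All 6 endothelial markers read lower, with a median of -0.67 and overlapping groups in all 6, and all 5 smooth muscle markers read lower with a median of -0.23. Of 5 airway markers 4 read higher (median 0.24), and 3 had all arrays labelled KO above all WT arrays, Cyp2f2 by 1.36 (SE 0.60), Tekt1 by 0.36 (SE 0.17) and Scgb3a2 by 0.24 (SE 0.11). Higher readings were found in 2 of 8 epithelial markers (median -0.04), 3 of 6 lipofibroblast markers (median -0.05, with Fabp4 alone separating the groups), 4 of 6 heart muscle markers (median 0.14) and 3 of 6 blood and myeloid markers (median -0.03). The part of these cell types in the readings of the pathway was not tested.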

How the data were processed

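Whole-lung RNA was read on 6 Affymetrix Mouse430_2 arrays, 3 labelled GATA6 KO and 3 wild-type. The authors deposited 1 linear intensity per probe set. GCRMA and MAS5 are named in the submitters' processing notes, with neither their roles nor versions. The arrays were taken as normalised to each other, since their quantiles lie close together (medians 20.5 to 23.9), which the notes do not state. Precision is limited by the number of arrays.

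Of 45101 probe sets, 64 controls were left out. Of the other 45037, 34945 name 1 gene, 932 several and 9160 none here, by the platform annotation, with symbols updated through a gene table of GRCm38.p6. All 45037 were fitted in limma 3.58.1 (R 4.3.3; lmFit, eBayes with an intensity trend) on log2(intensity + 16), two-sided, adjusted over all of them by Benjamini-Hochberg, with a threshold of 0.05. Intervals and SEs come from that fit. No filter was applied. Other pathway and marker genes were taken from fixed lists, each by its brightest probe set, naming genes that pass and then up to 3 per list with the smallest p. The 9 genes, the lists and the covariate for RNA composition were chosen with earlier results of these data known. Correlations over 6 arrays used exact permutation of 720 orderings.

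The steps were tested on simulated data. Replicate numbers were not taken as pairs: deviations of same-numbered arrays correlated at -0.613, 0.0971 and -0.311. The alternatives were other variance models, scalings, pseudocounts, filters, blocks and single arrays left out, 19 in all. Some genes of the lists were not analysed here.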

Additional observations from a re-analysis of the deposited data

How the results depend on the processing

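In each of the 19 alternatives 0 of the probe sets it kept passed in limma (all 12 in 17 of them, 9 with the brightest per gene, 6 with the filter on level), and at most 1 had an unadjusted p under 0.05, the dim Aldh1a3 1417642_at with fluidics station as a block or among the arrays of station 2. Over all probe sets the count called was 1 with each array centred on its median (Dnase1l2, 4.34), 1 with the brightest probe set per gene (5830444B04Rik, -0.19) and 37 with station as a block, all dim, 36 of them lower. The other alternatives called 0. The median of the 12, which go both ways around 0, was -0.060 with station as a block or among station 2 and -0.026 to 0.047 when single arrays were left out, so its sign is not settled. The replicate block, at 0.005, changed no call. Fits with 1 lone wild-type array (station 2) or 2 arrays in a group borrow the spread of the others.

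Of 219 differences recomputed for the 12 probe sets 185 kept their direction and 34 turned, none past the threshold on either side. With array weights those that turned were Rara (-0.0064), Rarg 1419416_a_at (-0.27) and Cyp26b1 (0.019). With median centring they were Aldh1a3 1448789_at (-0.0050), Aldh1a3 1427395_a_at (-0.031) and Rara (-0.027), and Rara also turned with quantile normalisation (-0.033) and a pseudocount of 64 (-0.0025). With station as a block, and equally among station 2, Rara (-0.30), Rarb (-0.25), Rarg 1419415_a_at (-0.044), Rarg 1419416_a_at (-0.12) and Cyp26b1 (0.35) turned, and with the composition covariate Aldh1a1 did (9.4e-05). With single arrays left out the range was -0.28 to 0.064 for Aldh1a1, -0.87 to -0.29 for Aldh1a2, -0.0037 to 0.053 for Aldh1a3 1448789_at, -0.17 to 0.16 for Rara, -0.044 to 0.43 for Rarb, -0.017 to 0.097 for Rarg 1419415_a_at, -0.26 to 0.37 for Rarg 1419416_a_at, -0.24 to 0.25 for Cyp26b1, -0.033 to 0.56 for Crabp1 and -0.021 to 0.0027 for Stra6. Causes were not tested. Over the 19 alternatives Dhrs3 ran from 0.36 to 0.52, Adh5 from 0.17 to 0.25, Rbp4 from 0.18 to 1.53 and Fabp5 from -1.81 to -1.12, none past the threshold.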
